A study of Homo sapiens with 6 samples.

Results

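The BCL2 family and the death receptor DR5 were examined in the human prostate cancer line PC-3 after treatment with an inhibitor of the glutamine transporter ASCT2. The 10 genes were chosen by name as the core of the apoptosis machinery, and each of the 10 had 1 row among the 19491 genes listed in the tables. Cells received no inhibitor (control, labelled WT), or 1 mM GPNA (L-γ-glutamyl-p-nitroanilide) or 10 mM BenSer (benzylserine) for 48 h, and the doses of the compounds therefore differed. The paper gives vehicle, water for both compounds, to control wells in general, and calls the sequenced control untreated. All groups were grown in RPMI medium with serum. PC-3 is a single cell line, so the groups are cultures of one genetic background. Total RNA was sequenced, and 6 libraries are labelled, 2 per group.

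BCL2 family proteins decide whether the outer mitochondrial membrane is opened, the step that releases cytochrome c and starts the intrinsic pathway of apoptosis. Pro-survival proteins hold back the effectors BAX and BAK1, which form the pore, and BH3-only proteins either neutralise the pro-survival proteins or engage the effectors directly. DR5 is a cell surface receptor for the ligand TRAIL and starts the extrinsic pathway, which BID links to mitochondria. In many cell types the integrated stress response, through ATF4 and CHOP, can raise transcription of the BH3-only genes PMAIP1 (NOXA) and BBC3 (PUMA) and of TNFRSF10B (DR5).

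Levels are given as CPM, reads scaled to the library total. Totals were 23077986 to 32178154 reads per library, highest under BenSer, and 51.6% to 52.7% of them fell on listed genes. The value columns 1 and 2 that each group has were almost as close as sampling of reads allows (chi-square per degree of freedom 1.05 to 1.06 within groups, 8.89 to 35.3 between groups). They were counted as 1 sample, so no difference between groups has a replicate check and none was tested. Differences are of log2(mean CPM + 1), and the 95% intervals cover counting error only. An interval that leaves out 0 means that the merged reads differed by more than counting error, not that a treatment effect was tested. The epithelial genes KRT8, KRT18 and EPCAM had 289, 108 and 97.8 CPM in the control, whereas KLK3, PTPRC (immune) and PECAM1 (endothelial) had no row. In bulk RNA, a change in the RNA of each cell cannot be told apart from a change in which cells are present.

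No gene of the set reached a 1.5-fold difference with either compound on this scale. The pseudocount of 1 CPM shrinks the differences of BBC3 and BCL2, whose plain ratios are given below. Over all genes tested, 0.340% were higher by 1.5-fold or more and 0.0637% lower by as much under GPNA, and 1.96% and 1.58% under BenSer. With GPNA, the intervals of PMAIP1 and BBC3 lay above 0, those of BCL2L11 and BID lay below 0, and the other 6 included 0. With BenSer, PMAIP1 and MCL1 lay above 0, BCL2L1, BAX and BID lay below 0, and 5 included 0. The same rule placed 9.78% of all genes above 0 and 20.1% below 0 under GPNA, and 18.2% and 25.8% under BenSer, so counts of 2 or 3 among 10 genes are near these shares. The differences ranged from -0.25 to 0.32 under GPNA, with a median of 0.01 against -0.03 over all genes. With BenSer they ranged from -0.28 to 0.39, with a median of -0.03, the same as over all genes. The control libraries enter both comparisons.

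**Figure D1:**
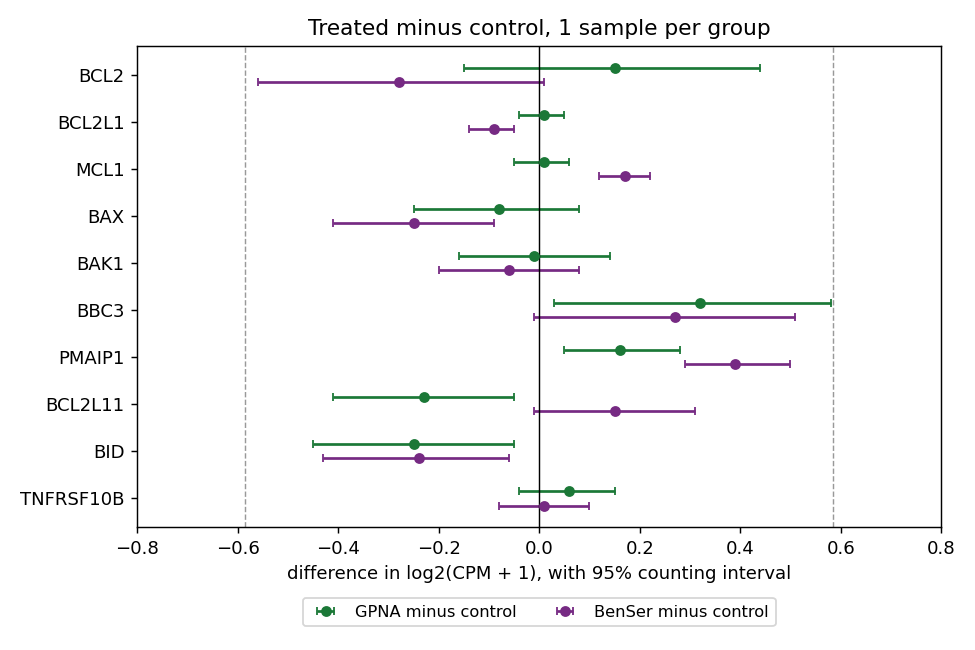
Difference in log2(CPM + 1) between each treatment and the control (x axis) for the 10 genes (y axis), with 95% counting intervals as bars and dashed lines at a 1.5-fold difference. No point reaches a dashed line, and PMAIP1 is the gene whose interval lies above 0 with both compounds, at 0.16 and 0.39.

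Per kilobase of annotated exon, the pro-survival gene BCL2L1 had the highest level in the control, at 38.0 CPM per kb, followed by MCL1 (18.0), PMAIP1 (10.3), TNFRSF10B (7.05), BAK1 (5.85) and BAX (4.13). BID (1.64) and BCL2L11 (1.42) were lower, and their columns overlapped in the control. BBC3 (0.109) and BCL2 (0.0873) were at the bottom, where the BBC3 columns, 0.0541 and 0.163, enclosed those of BCL2. The highest level was 435 times the lowest. The first 6 places were the same genes in the same order in all 3 groups, and the only change of rank was that BCL2L11 passed BID under BenSer, at 1.59 against 1.35 CPM per kb. BCL2L1 and MCL1 messages thus stood far above BCL2 message in all 3 groups.

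**Figure D2:**
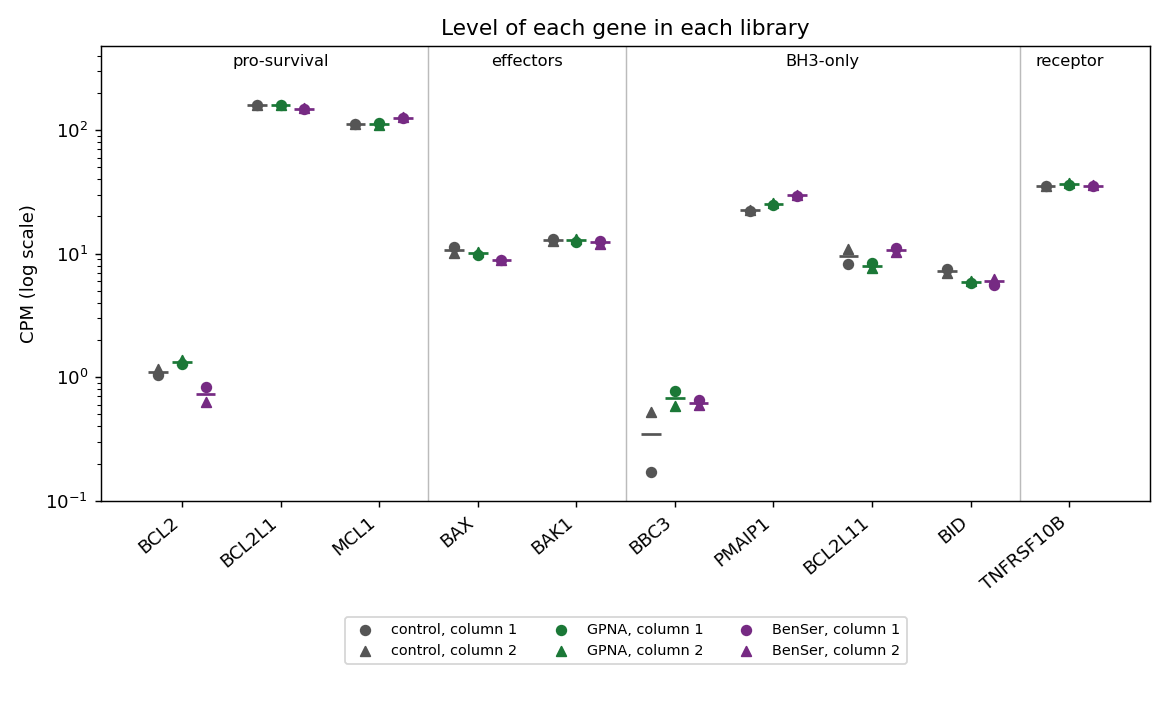
CPM on a log axis (y) of the 10 genes (x) in each of the 6 libraries, with circles for column 1, triangles for column 2 and a bar at the mean of each group. BCL2 and BBC3 lie near or under 1 CPM, while BCL2L1 and MCL1 lie above 100 CPM in every library.

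BCL2L1 (ENSG00000171552, chromosome 20 of GRCh37 from 30252255 to 30311792) encodes BCL-XL, which binds BAX, BAK1 and BH3-only proteins. It had 160.3 and 158.5 CPM in the control, 160.6 and 159.8 under GPNA, and 147 and 151 under BenSer. The BenSer columns lay below all the others, and the GPNA columns overlapped the control. The log2 difference was 0.01 under GPNA (95% interval -0.04 to 0.05) and -0.09 under BenSer (-0.14 to -0.05), a ratio of 0.937. TMM scaling, which moved the median of all genes under BenSer by 0.03, brought the BenSer value to -0.05 (-0.09 to -0.00) and put the GPNA value at 0.05 (0.00 to 0.09).

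MCL1 (ENSG00000143384, chromosome 1 from 150533371 to 150552214) encodes a short-lived pro-survival protein that is held in check by NOXA. Its CPM was 111 and 113 in the control, 114 and 111 under GPNA, and 125 and 127 under BenSer. The BenSer columns stood above all the others. On the log2 scale MCL1 differed by 0.01 under GPNA (-0.05 to 0.06) and 0.17 under BenSer (0.12 to 0.22), a ratio of 1.12.

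BCL2 (ENSG00000171791, chromosome 18 from 60790579 to 60987361), the founding pro-survival gene, was close to the limit of what these libraries measure. It had 24 and 27 reads in the control (1.03 and 1.17 CPM), 33 and 35 under GPNA (1.28 and 1.38 CPM), and 27 and 20 under BenSer (0.839 and 0.626 CPM). GPNA columns were above and BenSer columns below both control columns. Neither interval left out 0, with log2 differences of 0.15 for GPNA (-0.15 to 0.44) and -0.28 for BenSer (-0.56 to 0.01). Between the compounds the interval did leave out 0, with a BenSer minus GPNA difference of -0.43 (-0.69 to -0.15), and -0.34 with an upper bound of 0.00 without BenSer column 2. Without BenSer column 1 the BenSer value was -0.37 (-0.68 to -0.02). The pseudocount of 1 CPM understates these log2 differences at such levels. The plain ratio of CPM was 1.205 under GPNA (0.826 to 1.77) and 0.665 under BenSer (0.438 to 1.009). For BenSer over GPNA it was 0.552 (0.373 to 0.813).

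Of the effectors, BAX (ENSG00000087088, chromosome 19 from 49458072 to 49465055) had 11.3 and 10.1 CPM in the control, 9.77 and 10.3 under GPNA, and 8.86 and 8.83 under BenSer. BenSer columns were below all the others, and GPNA columns overlapped the control. Its log2 difference was -0.08 under GPNA (-0.25 to 0.08) and -0.25 under BenSer (-0.41 to -0.09). The BenSer value depended on the control column used, at -0.17 (-0.37 to 0.04) without control column 1 and -0.32 without control column 2. BAK1 (ENSG00000030110, chromosome 6 from 33540324 to 33548070) had 12.7 to 13.2 CPM in the control, 12.5 to 13.2 under GPNA and 11.99 to 12.7 under BenSer, all overlapping. Its differences of -0.01 (-0.16 to 0.14) and -0.06 (-0.20 to 0.08) were not detectable at this depth.

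PMAIP1 (ENSG00000141682, chromosome 18 from 57567228 to 57571537) encodes the BH3-only protein NOXA, which binds MCL1 and promotes its degradation. Its CPM was 22.3 and 22.6 in the control, 24.6 and 25.9 under GPNA, and 29.6 and 30.02 under BenSer. The 3 groups did not overlap, with the control lowest and BenSer highest. The log2 difference was 0.16 under GPNA (0.05 to 0.28), a ratio of 1.12, and 0.39 under BenSer (0.29 to 0.50), a ratio of 1.33. Of all genes tested, 86.7% had a lower difference than PMAIP1 under GPNA and 95.1% under BenSer. BenSer minus GPNA was 0.23 (0.13 to 0.33). Without GPNA column 2 the GPNA value was 0.13 and its interval reached -0.01, while the BenSer value ranged from 0.38 to 0.40 whichever column was left out.

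A pair of ratios within each library, chosen after their values were seen, does not depend on the scaling between libraries; their intervals take each read count as Poisson. There were 20.08 and 20.03 PMAIP1 reads per 100 MCL1 reads in the control, 21.5 and 23.4 under GPNA, and 23.7 and 23.7 under BenSer. On the log2 scale this ratio was higher by 0.16 under GPNA (0.03 to 0.29) and by 0.24 under BenSer (0.12 to 0.36), and BenSer minus GPNA was 0.08 (-0.04 to 0.19). The PMAIP1 message stood higher against MCL1 in both treatments, although MCL1 itself was higher under BenSer. BAX reads per 100 BCL2L1 reads were 7.06 and 6.34 in the control, 6.08 and 6.47 under GPNA, and 6.01 and 5.83 under BenSer, a log2 difference of -0.10 under GPNA (-0.28 to 0.09) and -0.18 under BenSer (-0.36 to -0.00).

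The promoter of PMAIP1 is shown because this gene had intervals above 0 under both compounds and far more reads than BBC3. RefSeq (GRCh38.p14) gives it on the plus strand of chr18:59899746-59900045, a window of 300 bases around the start of the gene, with capitals at the match to TGACG, the half-site of the cAMP response element that ATF and CREB factors recognise, here on the other strand and 55 bases before the start.
PMAIP1: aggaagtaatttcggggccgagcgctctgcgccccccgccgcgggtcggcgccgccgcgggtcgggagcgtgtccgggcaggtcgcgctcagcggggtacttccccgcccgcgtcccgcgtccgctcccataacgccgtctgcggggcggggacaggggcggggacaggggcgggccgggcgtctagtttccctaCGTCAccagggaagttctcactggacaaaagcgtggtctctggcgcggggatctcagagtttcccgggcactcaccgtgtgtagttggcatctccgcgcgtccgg

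This window is 71.3% G and C, against a median of 58.7% over all promoters. Promoter sequences were matched for 8 of the 10 genes (13 promoters), not for MCL1 and TNFRSF10B. None of the 13 held TGATGNAA, the core of the element that ATF4 and C/EBP factors share, or the full cAMP response element TGACGTCA, searched on both strands. Of all 35116 promoters, 3.62% and 1.85% held them. The half-site TGACG, which lies within TGACGTCA and was added after the values were seen, was in 4 of the 13 (BAX, BCL2, BCL2L1 and PMAIP1) and in 24.6% of all promoters.

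BBC3 (ENSG00000105327, chromosome 19 from 47724079 to 47736023) encodes PUMA, which binds all the pro-survival proteins. It was barely expressed, with 4 and 12 reads in the control (0.172 and 0.520 CPM), 20 and 15 under GPNA (0.775 and 0.589 CPM), and 21 and 19 under BenSer (0.653 and 0.595 CPM). Every treated column lay above both control columns. The log2 difference was 0.32 under GPNA (0.03 to 0.58) and 0.27 under BenSer (-0.01 to 0.51), which the pseudocount of 1 CPM understates at such levels. With TMM scaling the BenSer value was 0.28 (0.01 to 0.52). The plain ratio of CPM was 1.97 under GPNA (1.07 to 3.82) and 1.80 under BenSer (0.989 to 3.45), both past 1.5-fold. Control column 1, with 4 reads, decided these values: without it the log2 differences were 0.15 (-0.24 to 0.48) and 0.10 (-0.28 to 0.41).

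BCL2L11 (ENSG00000153094, chromosome 2 from 111876955 to 111926021) encodes BIM, a BH3-only protein that engages BAX and BAK1. Its CPM was 8.27 and 10.9 in the control, 8.41 and 7.62 under GPNA, and 11.2 and 10.3 under BenSer, so that each treatment overlapped the control, whereas GPNA and BenSer did not overlap each other. The control columns themselves differed by 0.36 on the log2 scale (0.11 to 0.61), the only one of 30 such pairs of columns of these genes whose interval left out 0. Over all genes with at least 20 reads, 4.45% to 4.75% of pairs did so. The log2 difference was -0.23 under GPNA (-0.41 to -0.05), but -0.04 (-0.26 to 0.19) without control column 2 and -0.40 without control column 1. With BenSer it was 0.15 (-0.01 to 0.31), and -0.02 without control column 1 and 0.34 (0.13 to 0.55) without control column 2. With TMM scaling the BenSer value was 0.19 (0.03 to 0.35). BenSer minus GPNA, where the control plays no part, was 0.38 (0.22 to 0.54).

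BID (ENSG00000015475, chromosome 22 from 18216904 to 18257536), whose protein is cut by caspase-8 and then acts at mitochondria, had 7.49 and 6.98 CPM in the control, 5.81 and 6.05 under GPNA, and 5.62 and 6.29 under BenSer. All 4 treated columns lay below both control columns. BID differed by -0.25 under GPNA (-0.45 to -0.05) and -0.24 under BenSer (-0.43 to -0.06), and between the compounds it was 0.01 (-0.18 to 0.20). Without control column 1 both values were -0.20, with intervals that reached 0.04.

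TNFRSF10B (ENSG00000120889, chromosome 8 from 22877646 to 22926544), which encodes DR5, had 35.4 and 35.3 CPM in the control, 36.2 and 37.5 under GPNA, and 35.1 and 36.0 under BenSer. GPNA columns were slightly above the control, and BenSer columns enclosed it. TNFRSF10B differed by 0.06 under GPNA (-0.04 to 0.15) and 0.01 under BenSer (-0.08 to 0.10), and both upper bounds lie well below a 1.5-fold difference. With TMM scaling the GPNA value was 0.10 (0.00 to 0.19).

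Of these 10 genes, 8 overlap another annotated gene, and BAX and PMAIP1 overlap none. The library kit keeps the strand, but whether the reads were counted by strand is not given in the sources used here, so reads of a gene and of an antisense partner may not have been told apart (BCL2L1, for example, has BCL2L1-AS1 on the other strand).

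**Figure D3:**
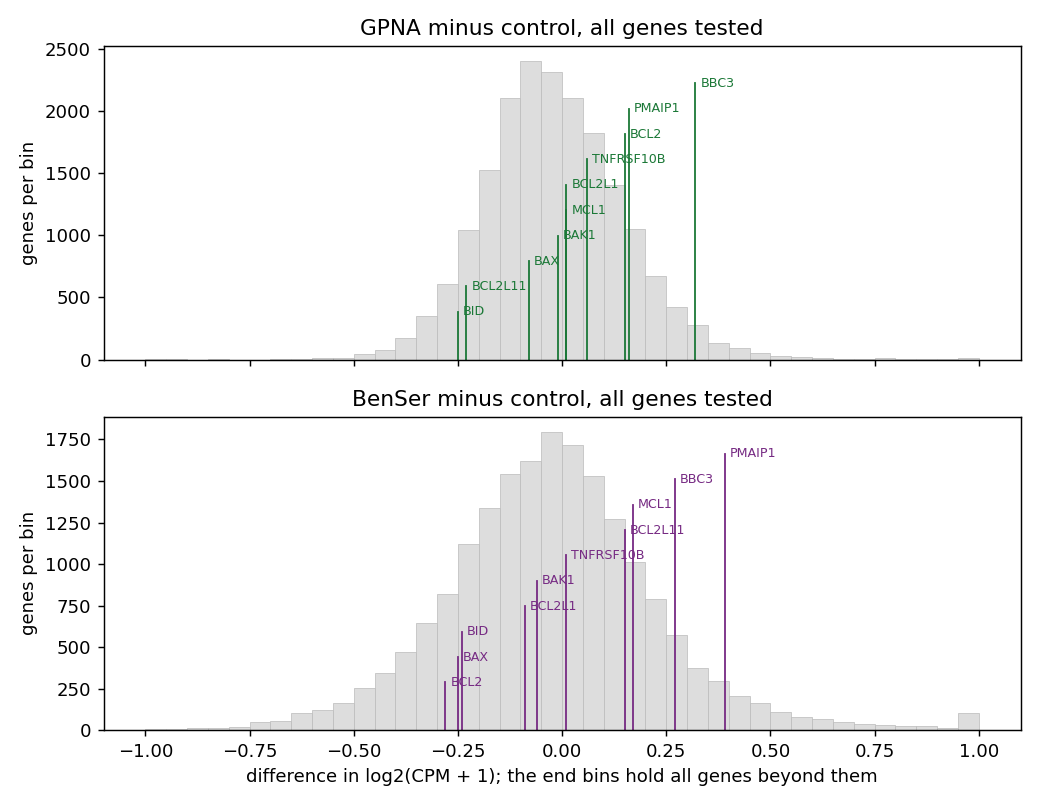
Number of genes (y axis) in bins of the log2(CPM + 1) difference between treatment and control (x axis), with a line at each of the 10 genes. Most lines stand within the bulk of all genes, and PMAIP1 is the outermost of the 10 on the right under BenSer, at 0.39.

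The rest of the pathway was followed in 13 lists of 81 genes, which include the 10, of which 74 had a row. Leaving out the 10, 2 of 63 genes tested were past 1.5-fold upward and 0 downward under GPNA, and 5 and 2 of 64 under BenSer. The intervals of 14 lay above and of 14 below 0 under GPNA, and of 25 above and 15 below 0 under BenSer. The median over these genes was 0.00 under GPNA and 0.05 under BenSer, against -0.03 over all genes with each compound. Over all genes tested, 9.78% of intervals lay above and 20.1% below 0 under GPNA, and 18.2% and 25.8% under BenSer. Past 1.5-fold were 0.340% upward and 0.0637% downward under GPNA, and 1.96% and 1.58% under BenSer. The same shares stand beside the counts of single lists below. The lists were chosen with earlier results known, and no departure from these shares was tested.

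Of the stress response list, 5 transcription factors and the pseudokinase gene TRIB3, 5 of 6 genes had intervals above 0 with each compound and none below 0, with a median of 0.26 under GPNA and 0.46 under BenSer. ATF4, the effector of amino acid shortage, was 112 CPM in the control, 139.7 under GPNA and 165 under BenSer, log2 differences of 0.31 (0.26 to 0.37) and 0.55 (0.51 to 0.60). DDIT3, which encodes CHOP, was 5.66, 8.97 and 10.7 CPM in the same order, with differences of 0.58 (0.39 to 0.78) and 0.81 (0.63 to 0.99). TRIB3, which is induced by ATF4 and CHOP, differed by 0.63 under GPNA (0.55 to 0.70) and 0.47 under BenSer (0.40 to 0.55). Beside these values, PMAIP1 differed by 0.16 and 0.39, TNFRSF10B by 0.06 and 0.01, and BBC3 by 0.32 and 0.27. The BBC3 values rest on 16 merged reads in the control, 35 under GPNA and 40 under BenSer, and on control column 1.

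Among the 8 BH3-only genes, 3 intervals lay above and 2 below 0 under GPNA, and 2 above and 1 below 0 under BenSer. BMF, a BH3-only gene outside the 10, had the largest value of this list, from 2.77 CPM in the control to 3.71 under GPNA and 6.28 under BenSer. Its log2 difference was 0.32 (0.07 to 0.57) and 0.95 (0.73 to 1.18), a ratio of 2.27 under BenSer. In the pro-survival list, BCL2A1 differed most under BenSer, at -0.58 (-0.82 to -0.34), from 3.74 to 2.17 CPM. No pro-survival interval left out 0 under GPNA, and 2 of 5 lay above and 2 below 0 under BenSer. BCL2L12, among the other BCL2-related genes, differed by -0.39 under GPNA (-0.56 to -0.23) and -0.32 under BenSer (-0.48 to -0.16).

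Of 7 death receptors with a row, 1 interval lay above and 1 below 0 under GPNA, and 2 above and 3 below 0 under BenSer. TNFRSF21 (DR6) was 148 CPM in the control, 156 under GPNA and 276 under BenSer, a log2 difference of 0.07 (0.03 to 0.12) and 0.89 (0.85 to 0.93). The ligand of DR5, TRAIL, is encoded by TNFSF10, which was 0.990 and 0.607 CPM in the control, 1.90 and 1.93 under GPNA, and 2.64 and 2.60 under BenSer. Its log2 difference was 0.70 under GPNA (0.40 to 0.97) and 1.01 under BenSer (0.73 to 1.26), or ratios of 2.39 and 3.28 from a low level. Of the receptor genes for TRAIL, TNFRSF10B stayed between 35.1 and 37.5 CPM in every library. TNFRSF10A (DR4) differed by -0.15 under GPNA (-0.29 to -0.01) and -0.20 under BenSer (-0.33 to -0.07). In the list of receptor adaptors and initiators, 3 of 6 intervals lay above and none below 0 with each compound. They were those of TRADD, CFLAR and CASP8 under GPNA, and of TRADD, RIPK1 and CFLAR under BenSer. CFLAR, which encodes c-FLIP, an inhibitor of caspase-8 activation, differed by 0.12 (0.02 to 0.21) and 0.22 (0.13 to 0.31). Its control columns, 35.7 and 30.6 CPM, differed beyond counting error. CASP10, the largest under BenSer, differed by 0.25 (-0.00 to 0.50).

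Downstream of mitochondria, CYCS, which encodes cytochrome c, was 106 CPM in the control, 93.7 under GPNA and 66.4 under BenSer, log2 differences of -0.17 (-0.23 to -0.12) and -0.67 (-0.73 to -0.61). BIRC5, a mitotic gene that encodes survivin, was 66.6, 58.7 and 42.1 CPM, with differences of -0.18 (-0.25 to -0.11) and -0.65 (-0.72 to -0.58). Of the apoptosome and mitochondrial factors, 0 intervals lay above and 2 below 0 under GPNA and 2 above and 2 below 0 under BenSer. The corresponding counts were 0 and 2, and 3 and 0, for the 6 genes of the executioner list. They were 1 and 1, and 1 and 2, for the 6 inhibitors of apoptosis.

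CDKN1A, a cell cycle inhibitor, had the largest difference of the one list not described gene by gene here, in which 1 of 8 intervals lay above and 2 below 0 under GPNA and 2 above and 2 below 0 under BenSer, with medians of 0.01 and 0.02. It was 8.31 CPM in the control, 12.6 under GPNA and 17.1 under BenSer, differences of 0.55 (0.38 to 0.72) and 0.96 (0.81 to 1.11). Among 6 genes that act on MCL1 and BIM turnover, 0 intervals lay above and 4 below 0 under GPNA, and 1 above and 4 below 0 under BenSer, the one above being BTRC at 0.35.

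**Figure D4:**
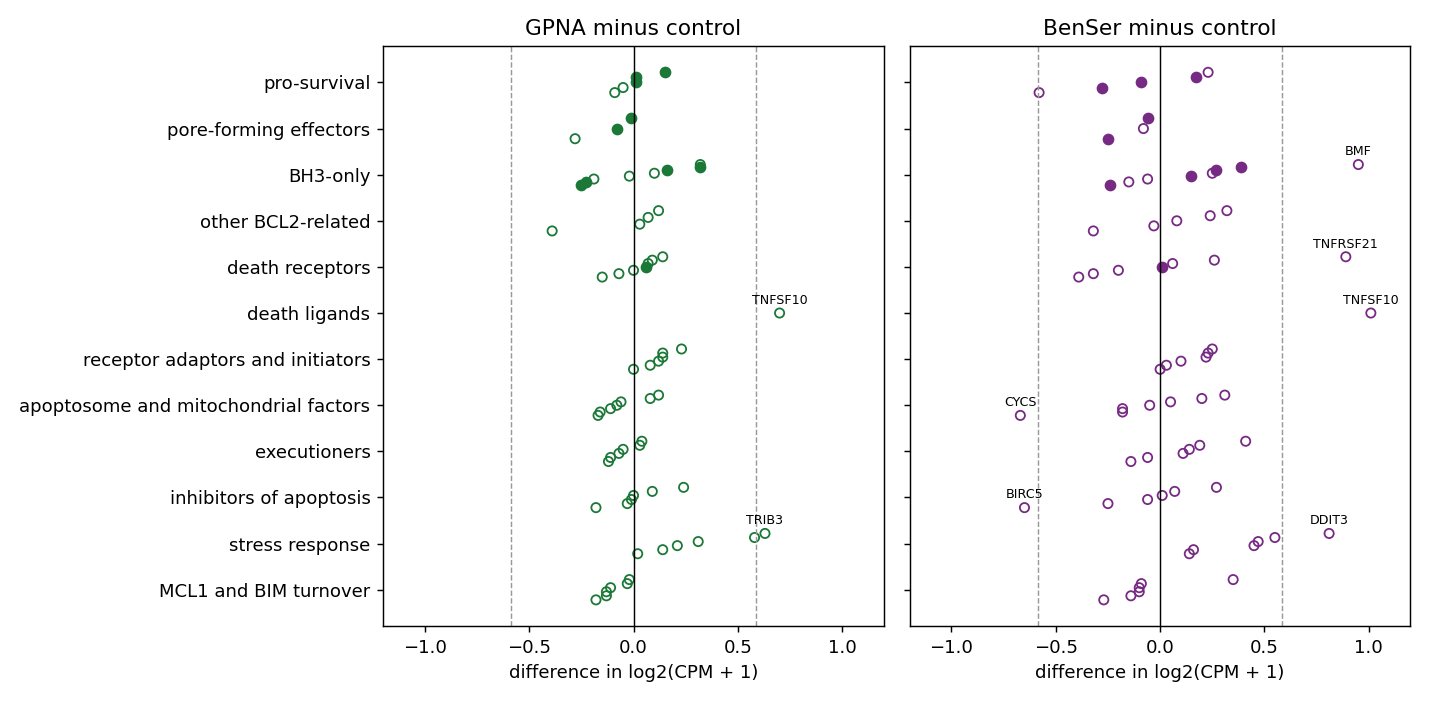
Difference in log2(CPM + 1) under GPNA (left panel) and BenSer (right panel) for each gene of the lists described in the text (y axis), with filled points for the 10 genes, open points for the others and dashed lines at a 1.5-fold difference. The names past the dashed lines, TNFSF10 and TRIB3 under GPNA and BMF, TNFRSF21, TNFSF10, DDIT3, CYCS and BIRC5 under BenSer, are all open points. One list, which holds CDKN1A (0.96 under BenSer), is not drawn.

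Between the compounds, BenSer minus GPNA was above 0 beyond counting error for MCL1, PMAIP1 and BCL2L11 and below 0 for BCL2, BCL2L1 and BAX, that is 3 and 3 of 10 genes beside 21.2% and 20.7% of all genes. It was 0.16 for MCL1 (0.11 to 0.21), -0.10 for BCL2L1 (-0.14 to -0.06) and -0.17 for BAX (-0.32 to -0.01). The BAX interval included 0 without GPNA column 2 (-0.33 to 0.07) and without either BenSer column, at -0.17 (-0.36 to 0.02) and -0.16 (-0.36 to 0.03). For BAK1, BBC3, BID and TNFRSF10B the intervals included 0, and that of TNFRSF10B ran from -0.14 to 0.04. The doses were not matched, so these values set 2 treatments side by side and do not rank the compounds.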

How the data were processed

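Paired-end reads of stranded total RNA libraries were trimmed by the authors, aligned with TopHat2 (genome build hg19) and counted per gene. The deposited values are CPM, made by the authors as reads over the library total, although the columns are named as counts. All values (100%) were whole reads over that total (tolerance 0.01 reads), so reads were recovered. Columns 1 and 2 match the labels. The other 8 column entries (6 distinct) match no label and were not used, nor were the authors' own fold changes, average levels, p-values and false discovery rates.

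Genes needed 5 or more mean reads in one of the groups compared, a pseudocount of 1 CPM was added, and exact Clopper-Pearson intervals were taken on the merged reads. The intervals and count tests were tested on simulated data. Gene positions and exon lengths come from GENCODE lifted to GRCh37. The genes and lists were chosen with earlier results of these data known. Outside the 10 genes, those named are past 1.5-fold in either treatment, the largest with BenSer in each list, or regulators such as ATF4 and DDIT3, and some that the rule names are not reported here. The search for BH3 motifs in protein sequences was not run. The count test of edgeR (4.0.16) with Benjamini-Hochberg adjustment, and DESeq2 (1.42.0), were alternatives on recovered reads with columns as samples, which compare libraries and not treatments. R 4.3.3, Python 3.11.15, numpy 2.4.6, pandas 2.3.3, scipy 1.17.1 and matplotlib 3.10.9 were used.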

Additional observations from a re-analysis of the deposited data

Results flagged for a closer look

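The columns of GPNA and of BenSer lay on opposite sides of the control mean for BCL2, BCL2L1 and BCL2L11, with a BenSer minus GPNA log2 difference of -0.43, -0.10 and 0.38. With 1 sample per group these differences were not tested. BCL2 rests on 47 to 68 merged reads per group, and the control columns of BCL2L11 disagree beyond counting error.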

How the results depend on the processing

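Of 419 recomputed differences of the 10 genes, 398 stayed within their main interval, 21 moved outside it and 0 of those beyond counting error changed sign. A pseudocount of 0.1 CPM put 1 gene past 1.5-fold in each of the 3 comparisons (0 at 1 CPM), and a lower fold threshold put 1 past it with BenSer and 2 between the compounds. Intervals above 0 numbered 4 under TMM with GPNA and 4 under TMM or DESeq2 size factors with BenSer (2 each as reported), and 1 with GPNA at a minimum of 20 reads. Leaving out single columns gave 1 to 2 intervals above and 1 to 1 below 0 with GPNA, 2 to 4 above and 1 to 3 below with BenSer, and 1 to 3 below between the compounds. PMAIP1 stayed above 0 in all of these with BenSer.

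With columns as samples, edgeR called 1466 genes higher and 1696 lower with GPNA, 3585 and 3429 with BenSer and 3490 and 3124 between the compounds at an adjusted p under 0.05. DESeq2 called 558 and 699, 2146 and 2021, and 2003 and 1658. Of the 10 genes, edgeR called 1 higher and 0 lower with GPNA (PMAIP1, adjusted p = 0.00623) and 2 higher (PMAIP1, adjusted p = 4.15e-11, and MCL1, adjusted p = 7.08e-09) and 1 lower with BenSer (BAX, adjusted p = 0.0311). DESeq2 called 0 and 0 with GPNA and 2 higher and 0 lower with BenSer. Between the compounds DESeq2 called MCL1 (adjusted p = 0.000192), PMAIP1 (adjusted p = 0.0154) and BCL2L11 (adjusted p = 0.0229) higher and BCL2L1 (adjusted p = 0.038) lower. There edgeR called the same genes higher, and BCL2 (adjusted p = 0.012) and BCL2L1 (adjusted p = 0.00295) lower. The replicate block in edgeR gave 1 higher and 0 lower with GPNA and 2 higher and 1 lower with BenSer, as without the block. The labels give no shared source for equal numbers. The low read numbers of BBC3 (16 to 40 merged reads per group) and BCL2 (47 to 68) limit what can be said of them.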
